A study of Mus musculus with 20 samples.

Results

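Pparg, Plin2, Plin4, Plin5, Cidec, Pnpla2, G0s2, Lipe, Mgll and Mogat1 are genes of the lipid droplet and of lipolysis, and these 10 genes were picked by symbol from the 45306 genes of a liver RNA-seq table of 20 mice. All 10 were in the table and passed the filter on low counts. The study asked how the loss of Sirt2, an NAD-dependent deacetylase, and cold exposure change the metabolism of the liver. The Control group held wild-type C57BL/6 mice kept at 24 °C, and the CE group held wild-type mice that spent 3 h per day at 4 °C for 3 weeks. The Sirt2-/- group held knockout mice without cold exposure and the Sirt2-/-/CE group held knockout mice with the same cold exposure. Each group had 5 mice, with 1 library per mouse, and mice were 5 weeks old when they were divided into groups. The knockout was made on the C57BL/6 background by injecting fertilized eggs with a ribonucleoprotein against exons 5 to 7 of Sirt2, so the deletion was not limited to the liver. The paper states that the groups of 1 experiment were matched for strain and sex, without naming the sex. The hour of collection, the feeding state at collection and the number of founders are not given in the sources used here.

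A lipid droplet is a core of triglyceride inside a single layer of phospholipid that carries coat proteins. Perilipins (Plin2, Plin4 and Plin5) and Cidec sit on that layer, shield the core and promote the growth of droplets. Lipolysis removes fatty acids from triglyceride one after another: Pnpla2 encodes adipose triglyceride lipase, which makes the first cut, Lipe encodes hormone-sensitive lipase, which cuts diglyceride, and Mgll encodes monoglyceride lipase, which makes the last cut. G0s2 encodes an inhibitor of adipose triglyceride lipase, and Mogat1 an enzyme that adds a fatty acid to monoglyceride. Pparg encodes a nuclear receptor that drives fat storage in adipocytes and is known to rise in fatty livers, where several of the other genes are among its targets.

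Total counts ranged from 35499796 to 53917339 per mouse. Sirt2, the targeted gene, had 40.2 CPM (counts scaled to library size with edgeR's TMM factors) or more in the 10 wild-type mice and 27.5 CPM or less in the 10 knockout mice. Hepatocyte markers were abundant, with group means of Alb between 74240 and 99290 CPM. The adipocyte markers Plin1, Lep and Retn were listed at 0 in all 20 mice and Adipoq did not exceed 0.172 CPM, while the sum of the 9 adipocyte markers ran from 6.96 to 12.7 CPM in Control, from 4.78 to 11.7 CPM in CE, from 6.37 to 14.8 CPM in Sirt2-/- and from 10.2 to 16.8 CPM in Sirt2-/-/CE mice, mostly as Fabp4 and Adrb3. 4 mice stood apart by the state of the circadian clock. A clock score, the mean centred log2 CPM of Nr1d2, Ciart, Per3, Tef and Dbp less that of Clock, Npas2 and Arntl, was between -6.48 and -4.52 in CE replicate 9, Sirt2-/- replicates 14 and 15 and Sirt2-/-/CE replicate 19. It was between -0.81 and 3.36 in the other 16 mice, and the 5 Control mice scored from 1.33 to 3.36.

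The genes of the droplet coat and of lipolysis spanned a wide range in liver. On the scale of the deposited FPKM, which divides by length and is used here to compare levels of different genes, the mean over the 20 mice was 144 for Plin2, 90.7 for G0s2, 44.6 for Mgll, 31.0 for Pnpla2 and 28.7 for Plin5. Lipe followed at 4.24 FPKM, Pparg at 4.03, Cidec at 1.61, Plin4 at 1.10 and Mogat1 at 0.232. Between neighbours in this order, only Plin5 and Lipe had ranges that did not overlap, with Plin5 above Lipe in 20 of 20 mice. Plin2 exceeded G0s2 in 19 mice and Pparg exceeded Cidec in 19 mice. Pnpla2 exceeded Plin5 in 11 mice and Lipe exceeded Pparg in 14. The order of the means differed by group for several neighbours. Pnpla2 (38.6 FPKM) stood above Mgll (36.5 FPKM) in Control and Plin5 above Pnpla2 in both knockout groups, each with overlapping ranges. For Lipe and Pparg, mean Pparg (6.34 FPKM) was above mean Lipe (3.83 FPKM) in Control, where it was higher in 4 of 5 mice, and Lipe (4.23 FPKM) was above Pparg (2.58 FPKM) in 5 of 5 CE mice without overlap of their ranges. The FPKM of a gene over its CPM was not fixed, and its highest value over the mice was 2.37 times the lowest for Cidec, 3.30 times for Mogat1 and 1.59 times for Pnpla2, against 1.29 to 1.31 times for the other 7, so the place of these 3 genes among close neighbours and the ratio of G0s2 to Pnpla2 are less certain. Plin2, the main perilipin of hepatocytes, was the most abundant of the 10 on this scale, and Mogat1 had 0 counts in 4 mice and at most 27 counts in any mouse. Of the 9 genes found in every mouse, G0s2 and Plin4 had the widest range, with the highest CPM 23.9 and 22.2 times the lowest, against 5.32 for Cidec, 5.02 for Plin5, 4.13 for Pparg, 3.51 for Plin2, 3.02 for Pnpla2, 2.77 for Mgll and 2.51 for Lipe. Mogat1, with mice at 0, has no such ratio, and its coefficient of variation over the 20 mice was 78.5%, against 92.4% for G0s2 and 76.6% for Plin4.

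**Figure D1:**
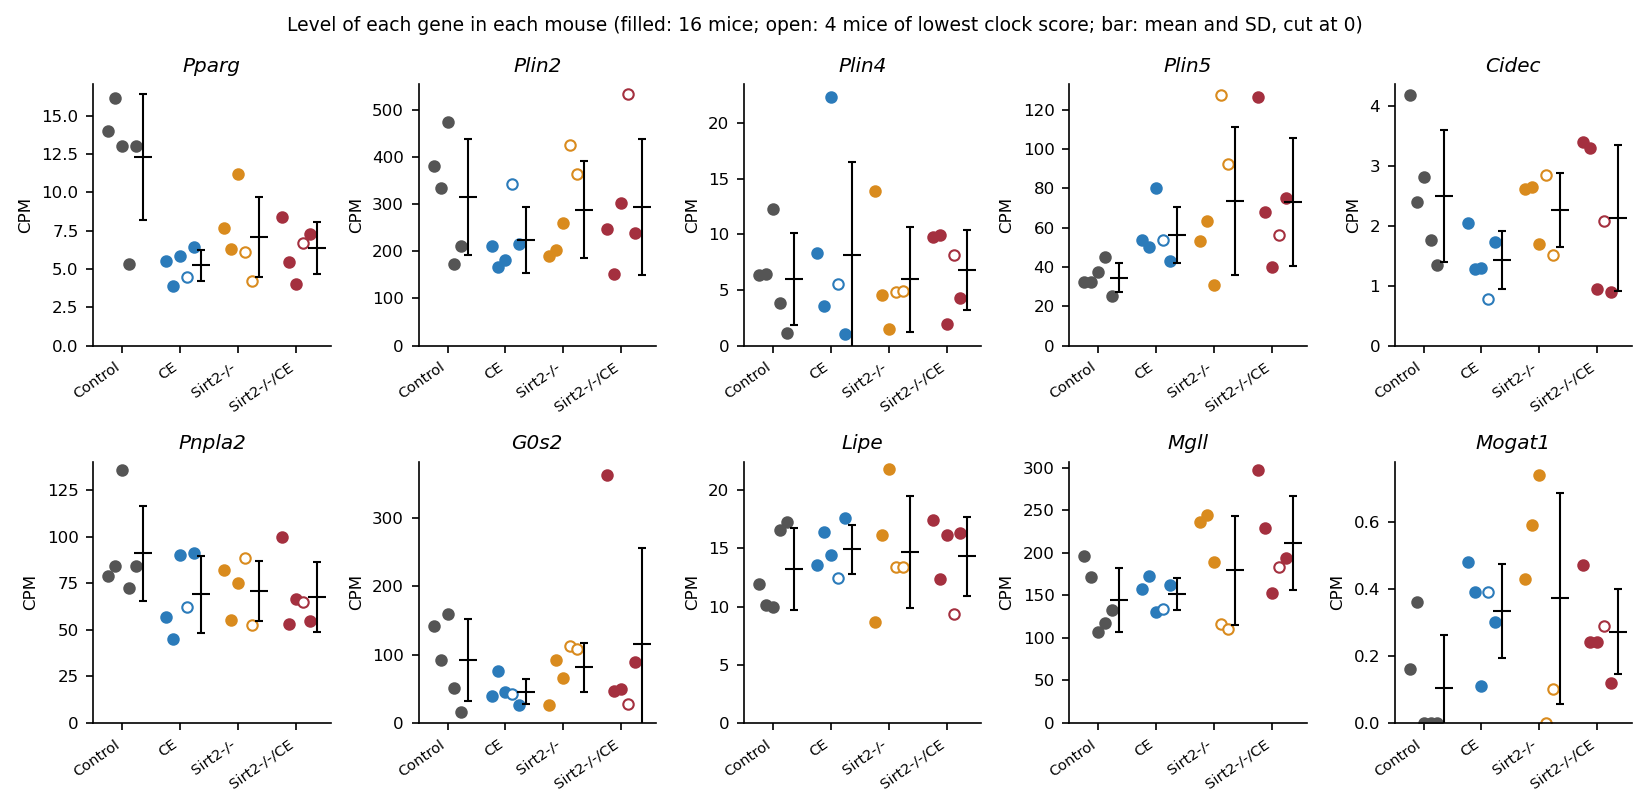
CPM of each of the 10 genes (vertical axis, linear, from 0) in each of the 20 mice, by group on the horizontal axis, with replicates in order. Filled points are 16 mice, open points are the 4 mice of lowest clock score, and the black bars give the mean and SD of 5 mice. Pparg was above 13 CPM in 4 of 5 Control mice and at most 11.2 CPM in every other mouse, and the open points of Plin2 lie at the top of their groups.

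None of the 10 genes passed the test in any comparison. In edgeR's quasi-likelihood test (two-sided, all 20 libraries in 1 fit, p adjusted over 15616 genes by the Benjamini-Hochberg method), 0 of 10 had an adjusted p under 0.05 for CE against Control, where 0.0064% of all genes did. The count was also 0 of 10 for Sirt2-/- against Control (0.89% of all genes), Sirt2-/-/CE against CE (0.0128%) and Sirt2-/-/CE against Sirt2-/- (0.0% of all genes). For the interaction of genotype and cold, for genotype averaged over cold and for cold averaged over genotype it was 0 of 10 as well, against 0.0%, 0.186% and 0.0% of all genes. At an unadjusted p under 0.05, the members counted 2 of 10 for CE against Control and 2 of 10 for Sirt2-/- against Control, where 10.7% and 14.9% of all genes did so. They counted 0 of 10 for Sirt2-/-/CE against Sirt2-/- (7.25% of all genes), 1 of 10 for Sirt2-/-/CE against CE (6.09%) and 1 of 10 for the interaction (8.34%). For genotype averaged over cold the count was 2 of 10 (13.8% of all genes) and for cold averaged over genotype 1 of 10 (9.48%). Each of these counts lies within 1 gene of what the share of all genes gives for 10 genes.

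The other tools called a few of the 10. DESeq2 called Pparg for CE against Control, where it called 1.2% of all genes, and Plin5 for Sirt2-/- against Control, where it called 3.89%. The limma voom fit with sample quality weights called Pparg in both comparisons and Plin5 for Sirt2-/- against Control, with 3.46% of all genes called for CE and 5.8% for Sirt2-/-. For none of the 10 were the CPM of 2 compared groups free of overlap, against 3.04% of all genes for CE against Control, 3.61% for Sirt2-/- against Control, 0.743% for Sirt2-/-/CE against Sirt2-/- and 1.22% for Sirt2-/-/CE against CE. The median log2 fold change of the 10 was -0.17 for CE against Control, -0.07 for Sirt2-/- against Control, -0.02 for Sirt2-/-/CE against Sirt2-/- and 0.34 for Sirt2-/-/CE against CE, with medians over all genes between -0.01 and 0.02. With 5 mice per group, a p above the threshold does not show that the levels were alike. In bulk liver, fewer cells of a type and less RNA per cell cannot be told apart.

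**Figure D2:**
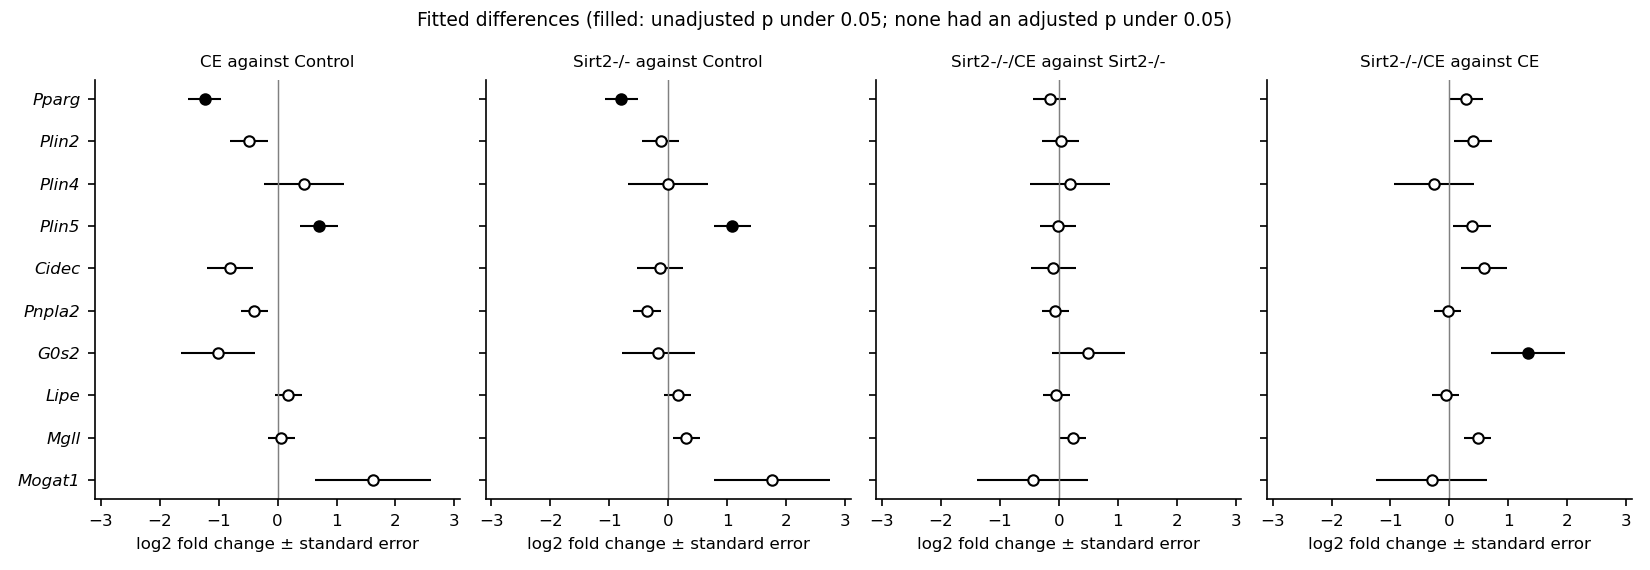
Log2 fold change of each of the 10 genes with its standard error (horizontal axis) in the 4 comparisons of groups, from the edgeR fit of all 20 libraries. Filled points mark an unadjusted p under 0.05, and no gene passed after adjustment. Pparg lay at -1.24 and Plin5 at 0.70 for CE against Control, and most other points lie within 1 log2 unit of 0.

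Pparg (ENSMUSG00000000440), the receptor that drives lipid storage, lies at chr6:115360951-115490399 of GRCm38 on the forward strand. It had 14.04, 16.2, 13.03, 5.35 and 13.03 CPM in the Control mice. It had 5.5, 3.92, 5.85, 4.46 and 6.42 CPM in the CE mice. All CE mice were below 4 of the 5 Control mice, and Control replicate 4 lay within the range of the CE mice. Pparg had 7.65, 6.28, 11.2, 6.10 and 4.21 CPM in Sirt2-/- mice and 8.37, 5.49, 4.01, 6.73 and 7.27 CPM in Sirt2-/-/CE mice. The 4 high Control mice also exceeded every one of the 10 knockout mice. The log2 fold change of Pparg was -1.24 for CE against Control (standard error 0.28, unadjusted p = 0.000288, adjusted p = 0.157 from edgeR), a level 0.424 times that of Control. In the same comparison the endothelial markers had a median log2 fold change of -0.70 (summed level 32.0 to 153 CPM in CE against 47.2 to 202 CPM in Control, none at 0). Of these, 1 of 6 had an unadjusted p under 0.05 (10.7% of all genes did). The stellate cell markers had a median of -0.69 (0 of 7, summed level 35.02 to 204 CPM against 109 to 238 CPM, none at 0). The Kupffer cell and macrophage markers had a median of 0.03 (0 of 7). For Sirt2-/- against Control the log2 fold change of Pparg was -0.80 (standard error 0.28, adjusted p = 0.172 from edgeR). There the endothelial, Kupffer cell and stellate cell markers had medians of 0.37, 0.37 and 0.20. None of them had an unadjusted p under 0.05 (14.9% of all genes did). The part of these cells in the values of Pparg was not tested.

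Among knockout mice, Pparg did not differ with cold beyond the spread, with a log2 fold change of -0.15 for Sirt2-/-/CE against Sirt2-/- (standard error 0.28, adjusted p = 0.971 from edgeR). Against CE, Sirt2-/-/CE mice had a value of 0.29 (standard error 0.28, adjusted p = 0.948 from edgeR). As single mice were left out, that value ran from 0.17 (without Sirt2-/-/CE replicate 16) to 0.41 (without Sirt2-/-/CE replicate 18). With limma voom it was 0.11. The interaction of genotype and cold was 1.08 for Pparg (standard error 0.40, unadjusted p = 0.0126, adjusted p = 0.471 from edgeR). Cold averaged over genotype gave -0.70 (standard error 0.20, adjusted p = 0.298 from edgeR) and genotype averaged over cold gave -0.26 (standard error 0.20, adjusted p = 0.605). Control replicate 4 carried weight in these values. Without it, the log2 fold change for CE against Control was -1.43 and the adjusted p from edgeR was 0.0133. Without any other single mouse it lay between -1.32 and -1.12, with adjusted p-values from edgeR of 0.124 to 0.369. Counts of the whole gene do not separate the transcripts that start at its different promoters.

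Plin5 (ENSMUSG00000011305) encodes a perilipin of tissues that burn fat, where it links droplets to mitochondria, and its position is chr17:56111601-56117596 on the reverse strand. It had 32.2, 32.2, 37.4, 45.2 and 25.4 CPM in Control mice and 53.9, 49.9, 80.3, 53.5 and 43.0 CPM in CE mice. In Sirt2-/- mice it had 53.1, 63.4, 31.0, 128 and 92.3 CPM, and in Sirt2-/-/CE mice 126, 68.2, 40.1, 56.4 and 74.9 CPM. The CE mice were all above the Control mice apart from CE replicate 10, which lay below Control replicate 4, and Sirt2-/- replicate 13 lay within the Control range. The log2 fold change was 1.09 for Sirt2-/- against Control (standard error 0.32, unadjusted p = 0.00266, adjusted p = 0.0937 from edgeR), or 2.13 times the Control level. It was 0.70 for CE against Control (standard error 0.32, adjusted p = 0.437 from edgeR) and 0.74 for genotype averaged over cold (standard error 0.22, adjusted p = 0.163 from edgeR). In the latter comparison 6 of 6 endothelial markers and 5 of 7 Kupffer cell and macrophage markers had an unadjusted p under 0.05 (13.8% of all genes did). All of these were higher, and the 2 lists had median log2 fold changes of 0.78 and 0.58. Stellate cell markers had a median of 0.39, with 2 of 7 at such a p, both higher. For CE against Control the endothelial and Kupffer cell medians were -0.70 and 0.03, and for Sirt2-/- against Control they were 0.37 and 0.37. The part of these cells in the values of Plin5 was not tested. The value of Plin5 for genotype averaged over cold was 0.45 with limma voom. Without Sirt2-/- replicate 13 the value for Sirt2-/- against Control was 1.29 with an adjusted p of 0.0277 from edgeR. Without any other single mouse it lay between 0.80 (without Sirt2-/- replicate 14) and 1.20, with adjusted p-values from edgeR of 0.0658 to 0.263. Plin5 and Pparg therefore lay on opposite sides of Control in both wild-type cold and unexposed knockout mice, comparisons that share the Control mice.

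As with Plin5, the levels of the other coat genes overlapped between all groups. Plin2 (ENSMUSG00000028494), which coats droplets in hepatocytes, had a lowest, median and highest CPM of 173, 334 and 474 in Control, 167, 211 and 344 in CE, 189.6, 259.9 and 425 in Sirt2-/- and 152, 246 and 535 in Sirt2-/-/CE mice. The log2 fold changes of Plin2 ran from -0.49 to 0.53 over the 7 comparisons. Plin4 (ENSMUSG00000002831), which lies 1797 bases from Plin5 on the same strand of chromosome 17, had 1.01 to 22.4 CPM, and each group held mice above and below 5 CPM. Cidec (ENSMUSG00000030278), which fuses droplets, had 1.34 to 4.18 CPM in Control mice and 0.785 to 2.05 CPM in CE mice. Its log2 fold change for CE against Control was -0.81 (standard error 0.39, adjusted p = 0.471 from edgeR), and the groups overlapped. Without single mice it ran from -0.98 to -0.54, the latter without Control replicate 1.

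The start regions of these genes were searched for 3 short sequences, as a description of letters only. The searched sequences, on both strands and in the 250 bases before each RefSeq start on GRCm38.p6, were AGGTCA (the half-site of many nuclear receptors), AGGNCA repeated in the same direction after 1 further base (the form known for pairs of PPAR and RXR) and CACGTG (an E-box, the site known for clock factors among others). AGGTCA was found in 4 of the 16 windows of the 10 genes and in 14% of 32851 windows of all genes. The direct repeat was found in 0 of 16 windows and in 0.338% of all, and the E-box in 2 of 16 and in 6.02% of all. The windows of Plin2 and Plin5 are shown up to the first annotated exon base, since they hold the half-site in full and bear on coat genes with differing patterns. Capitals mark the half-site, which reads TGACCT where it lies on the other strand, and the stretches read 5′ to 3′ along the gene.
Plin2, chr4:86670061-86670309, reverse strand: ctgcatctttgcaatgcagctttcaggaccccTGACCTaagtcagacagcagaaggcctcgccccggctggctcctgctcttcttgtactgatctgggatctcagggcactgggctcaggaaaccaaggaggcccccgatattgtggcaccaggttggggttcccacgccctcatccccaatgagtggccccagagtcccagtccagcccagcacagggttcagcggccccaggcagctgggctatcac
Plin5, chr17:56117597-56117798, reverse strand: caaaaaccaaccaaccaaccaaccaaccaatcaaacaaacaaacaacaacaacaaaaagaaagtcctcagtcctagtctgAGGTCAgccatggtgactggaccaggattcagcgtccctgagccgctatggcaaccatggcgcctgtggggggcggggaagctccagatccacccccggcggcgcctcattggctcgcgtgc

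The half-site of Plin2 lies 218 to 213 bases before its start and that of Plin5 lies 170 to 165 bases before its start. Pparg holds one in the windows of both its first starts, 28 to 23 and 9 to 4 bases before them. The E-box stands in Mgll 44 to 39 bases before a start and in Lipe 155 to 150 bases before a start. These 4 matches lie before a RefSeq start but beyond the first annotated exon base of their windows. That base comes after 57 and 193 bases in the Pparg windows and after 0 bases in those of Mgll and Lipe. The 4 matches are shown with 10 bases on each side where the window allows, with the match in capitals.
Pparg, chr6:115361106-115361131, forward strand: ccgccgcctcAGGTCAgagtcgcccc
Pparg, chr6:115362330-115362348, forward strand: ggacgcgaggAGGTCAaga
Mgll, chr6:88724358-88724383, forward strand: gggccgggcaCACGTGgggccccggc
Lipe, chr7:25396127-25396152, reverse strand: cagggacgacCACGTGagggggcgga

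Pnpla2 (ENSMUSG00000025509), the lipase that opens triglyceride breakdown, lies at chr7:141455198-141460743 on the forward strand. It had 78.9, 84.2, 136, 72.4 and 84.2 CPM in Control mice and 57.0, 44.97, 90.2, 62.1 and 91.3 CPM in CE mice. It had 82.4, 55.3, 75.0, 88.5 and 52.7 CPM in Sirt2-/- mice and 99.7, 53.0, 66.7, 64.9 and 55.0 CPM in Sirt2-/-/CE mice. All groups overlapped, and Control replicate 3 was the highest of the 20 mice. The log2 fold change of Pnpla2 was -0.40 for CE against Control (standard error 0.23, adjusted p = 0.575 from edgeR) and -0.36 for Sirt2-/- against Control (standard error 0.23, adjusted p = 0.485). For Sirt2-/-/CE against Sirt2-/- and against CE it was -0.06 and -0.03, and the interaction was 0.34, with adjusted p-values of 0.99, 0.994 and 0.840. Without Control replicate 3 the values for CE and for Sirt2-/- against Control were -0.21 and -0.18, and the interaction was 0.16.

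G0s2 (ENSMUSG00000009633), the inhibitor of that lipase, lies at chr1:193272161-193273217 on the reverse strand and was the most variable of the 10. It had 142, 91.8, 159, 50.3 and 15.2 CPM in Control mice and 39.7, 75.4, 44.4, 41.7 and 26.4 CPM in CE mice. It had 26.3, 92.03, 66.1, 113 and 109 CPM in Sirt2-/- mice and 363, 46.4, 49.2, 27.2 and 89.2 CPM in Sirt2-/-/CE mice. A single mouse, Sirt2-/-/CE replicate 16, stood far above all others. The log2 fold change for Sirt2-/-/CE against CE was 1.34 (standard error 0.63, unadjusted p = 0.0473, adjusted p = 0.810 from edgeR), and it was 0.22 without that mouse. In the same comparison 6 of 6 endothelial markers had an unadjusted p under 0.05 (6.09% of all genes did) and a higher level. Their median log2 fold change was 1.25, with a summed level of 155 to 253 CPM against 32.0 to 153 CPM and none at 0. At such a p, 4 of 7 Kupffer cell and macrophage markers (median 0.77) and 2 of 7 stellate cell markers (median 0.67) were also higher. The part of these cells in the result was not tested.

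Lipe (ENSMUSG00000003123), the diglyceride lipase, had 8.70 to 21.8 CPM and was the steadiest of the 10, with log2 fold changes between -0.21 and 0.18 over the 7 comparisons. Mgll (ENSMUSG00000033174), at chr6:88724412-88828360 on the forward strand, had 196, 171, 107, 117 and 132 CPM in Control mice and 158, 172, 130.1, 134 and 163 CPM in CE mice. It had 237, 245, 189, 116 and 109.8 CPM in Sirt2-/- mice and 298, 229.5, 152, 183 and 194 CPM in Sirt2-/-/CE mice. The groups overlapped, and the 2 lowest Sirt2-/- mice were those of low clock score. Genotype averaged over cold gave a log2 fold change of 0.39 for Mgll (standard error 0.16, unadjusted p = 0.0262, adjusted p = 0.292 from edgeR). This is the comparison in which the endothelial and Kupffer cell markers stood higher, as given beside Plin5, and their part in the value of Mgll was not tested either.

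Mogat1 (ENSMUSG00000012187), the monoglyceride acyltransferase, had few reads, with 0 to 18 counts in Control mice, 4 to 20 in CE mice, 0 to 27 in Sirt2-/- mice and 5 to 19 in Sirt2-/-/CE mice. Of the 4 mice at 0 counts, 3 were Control mice. The log2 fold changes of Mogat1 were 1.62 for CE against Control (standard error 0.98, adjusted p = 0.607 from edgeR) and 1.76 for Sirt2-/- against Control (standard error 0.98, adjusted p = 0.416). They were 2.88 and 3.02 without Control replicate 2, and without other single mice they went down to 1.31 and 1.36. The gene shares 200 of its 1558 exon bases with BC035947 on the opposite strand, and BC035947 took from 0% to 100% of the joint counts of a mouse. Since the handling of strand is not given, the reads of this pair cannot be told apart. Overlaps with a gene on the opposite strand also hold for Lipe (918 of 5886 exon bases, with at most 0.58% of the joint counts in the partner 4732471J01Rik), Mgll (167 of 5077) and Plin4 (17 of 5777, where the partner Hdgfl2 took 52.8% to 95.1% of the joint counts).

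Plin2 was highest in the mice of low clock score in each group that held such mice. The 4 mice of lowest score had 344 (CE), 425 and 363 (both Sirt2-/-) and 535 CPM (Sirt2-/-/CE) of Plin2. All 4 exceeded every other mouse of their own group, whose highest values were 216, 259.9 and 302 CPM. No Control mouse was among the 4. Leaving them out could therefore only lower the means of the other groups, and that setting is no test of Plin2 against Control. Without these 4 mice, a setting chosen after the data were seen, Plin2 had a mean of 193 ± 23.8 CPM (SD, n = 4) in CE, 217 ± 37.3 CPM (n = 3) in Sirt2-/- and 235 ± 61.6 CPM (n = 4) in Sirt2-/-/CE mice, against 315 ± 123 CPM (n = 5) in Control mice. The log2 fold change of Plin2 for CE against Control was -0.69 without these mice (unadjusted p = 0.0178, adjusted p = 0.328 from edgeR) and -0.94 with the score as a covariate (unadjusted p = 0.0034, adjusted p = 0.240 from edgeR), against -0.49 in the fit of all mice and -0.30 without Control replicate 3 (adjusted p = 0.933 from edgeR). For Sirt2-/- against Control it was -0.13 in all mice, -0.53 without the 4 mice (adjusted p = 0.696 from edgeR) and -0.76 with the covariate (unadjusted p = 0.0207, adjusted p = 0.534). The interaction for Plin2 was 0.53 in all mice, 0.78 without the 4 mice (adjusted p = 0.767 from edgeR) and 1.03 with the covariate (unadjusted p = 0.0141, adjusted p = 0.839). The labels do not give the hour at which livers were taken, so the score and the group cannot be fully told apart.

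Other genes took extreme values in some of these mice. Sirt2-/- replicates 14 and 15 had the 2 highest levels of Plin5, the 2 lowest of Pparg and the 2 lowest of Mgll and of Mogat1 in their group, while CE replicate 9 and Sirt2-/-/CE replicate 19 lay within their groups for Plin5, Pparg and Mgll. G0s2 was highest in the same 2 Sirt2-/- mice and lowest in Sirt2-/-/CE replicate 19, and Lipe was lowest in CE replicate 9 and Sirt2-/-/CE replicate 19. Without the 4 mice the log2 fold change of Plin5 for Sirt2-/- against Control was 0.51 (adjusted p = 0.750 from edgeR), and that of Pparg was -0.55 (adjusted p = 0.735 from edgeR). With the score as a covariate these values were 0.70 and -0.48 (adjusted p = 0.752 and 0.840 from edgeR). For genotype averaged over cold, Plin5 was 0.46 without the 4 mice and 0.51 with the covariate (adjusted p = 0.496 and 0.642 from edgeR), and Pparg was -0.19 and -0.06 (adjusted p = 0.887 and 0.973). Pparg for CE against Control was -1.17 without the 4 mice (adjusted p = 0.202 from edgeR) and -0.98 with the score as a covariate (adjusted p = 0.240). For Sirt2-/-/CE against Sirt2-/- Pparg was -0.44 without the 4 mice (adjusted p = 0.836 from edgeR) and -0.15 with the covariate (adjusted p = 0.976). Mgll for genotype averaged over cold was 0.54 without them (unadjusted p = 0.00269, adjusted p = 0.294 from edgeR) and 0.58 with the score as a covariate (adjusted p = 0.236). Within the Control group, replicate 4 had the lowest clock score, the lowest Pparg and the highest Plin5, and its Plin2, at 173 CPM, was the lowest of that group.

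**Figure D3:**
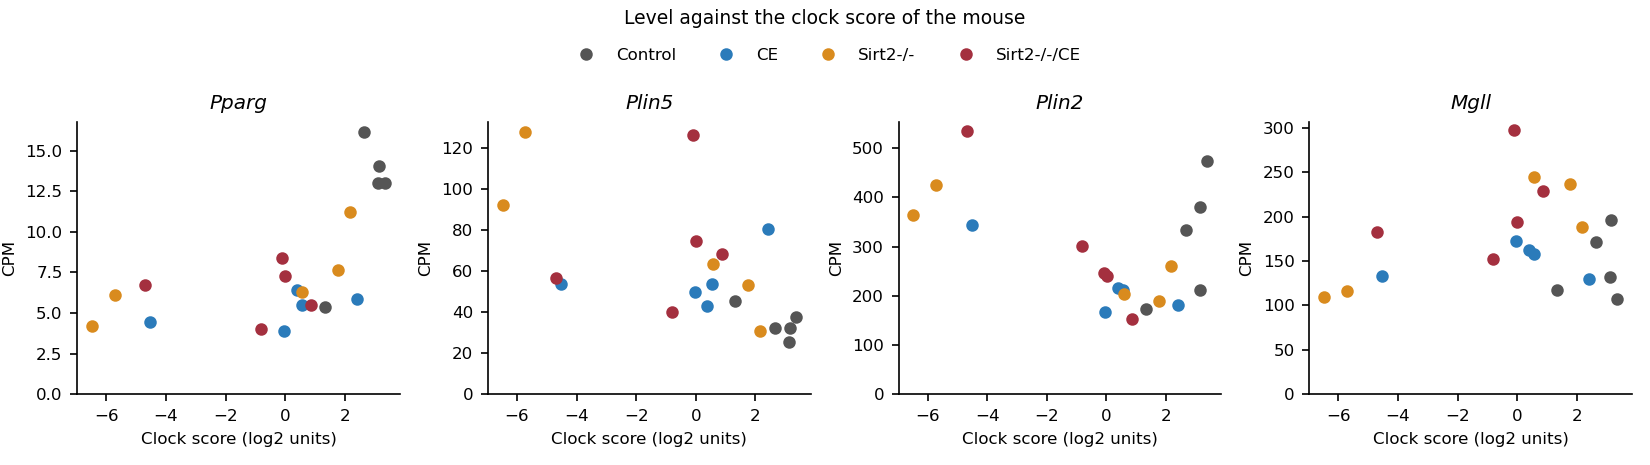
CPM of Pparg, Plin5, Plin2 and Mgll (vertical axes, linear, from 0) against the clock score of the mouse (horizontal axis, log2 units), 1 point per mouse, coloured by group. The 4 mice with scores between -6.48 and -4.52 had 344 to 535 CPM of Plin2, and the Control mice, with scores from 1.33 to 3.36, include the 4 highest levels of Pparg.

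Pairs of the 10 genes were compared across mice as Pearson's r of log2 CPM, for all 45 pairs. r was positive for 27 pairs, and 2 pairs had a p from 100000 permutations, adjusted over the 45, under 0.05. Mgll and Mogat1, the last lipase and the enzyme that uses the same substrate for synthesis, had r = 0.71 and Spearman's rho = 0.67 over 20 mice (adjusted permutation p = 0.0211 and 0.0391). With the group means subtracted r was 0.78 (adjusted permutation p = 0.0443), and over the 16 mice outside the low clock class it was 0.73. Without the 2 mice farthest from the median of Mgll it was 0.66. Mogat1 had at most 27 counts, so this relation rests on few reads.

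Plin4 and Lipe formed the other pair, with r = -0.66 and rho = -0.69 (adjusted permutation p = 0.0394 and 0.0391). Their r was -0.69 with the group means subtracted (adjusted permutation p = 0.0391), -0.67 over the 16 mice and -0.62 without the 2 mice farthest from the median of Plin4. Mice with more Plin4 had less Lipe by each of these measures. Pparg and Pnpla2 had r = 0.62 and rho = 0.60 (adjusted permutation p = 0.0543 and 0.0943), and r was 0.48 with the group means subtracted (adjusted permutation p = 0.266). Pparg and Plin5 had r = -0.50 over all mice (adjusted permutation p = 0.291) and -0.23 with the group means subtracted.

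**Figure D4:**
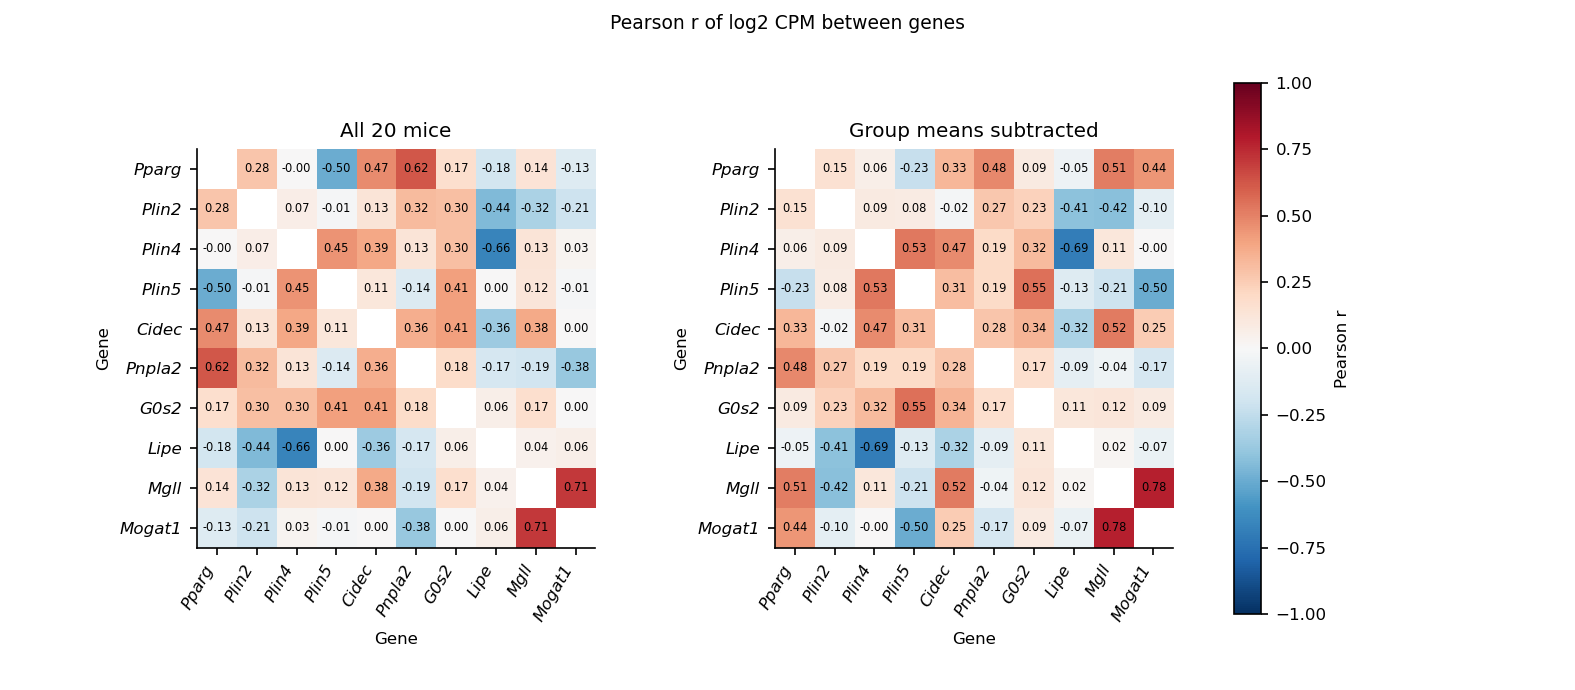
Pearson's r of log2 CPM for the 45 pairs of genes (both axes list the 10 genes), over all 20 mice on the left and with the group means subtracted on the right, with red for positive and blue for negative values. Mgll with Mogat1 (0.71 and 0.78) and Plin4 with Lipe (-0.66 and -0.69) were the 2 pairs with an adjusted p under 0.05.

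A pair of FPKM ratios describes the balance within a mouse. The ratio of the inhibitor G0s2 to its lipase Pnpla2 had medians of 2.63 in Control, 1.76 in CE, 3.15 in Sirt2-/- and 2.63 in Sirt2-/-/CE mice. Its ranges overlapped in all groups, from 0.442 to 4.65 in Control and from 1.08 to 9.28 in Sirt2-/-/CE mice. The ratio of Plin5 to Plin2 had a median of 0.0909 in Control mice and of 0.240, 0.261 and 0.294 in CE, Sirt2-/- and Sirt2-/-/CE mice. Its ranges overlapped too, at 0.0745 to 0.246 in Control, 0.146 to 0.410 in CE, 0.112 to 0.294 in Sirt2-/- and 0.0995 to 0.483 in Sirt2-/-/CE mice.

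Around the 10 genes, 18 lists of related pathways and of cell type markers were counted in the same fit. Of the 15 other droplet proteins tested, 0 passed in the 7 comparisons, and for Sirt2-/- against Control their median log2 fold change was -0.05. Of 17 other lipases and hydrolases, 0 passed, while 6 had an unadjusted p under 0.05 for Sirt2-/- against Control (14.9% of all genes did), 5 of them lower, with a median of -0.29. In Sirt2-/-/CE against Sirt2-/-, which shares the Sirt2-/- mice, 4 of these 17 had such a p (7.25% of all genes did), all higher, with a median of 0.23, and in the interaction 6 did (8.34% of all genes), 5 of them higher, with a median of 0.32. The counts were 0 of 15 for triglyceride synthesis, 0 of 20 for nuclear receptors and regulators around Pparg and 0 of 13 for fatty acid uptake and lipoprotein export. Scd1, the desaturase that makes oleate and a gene raised by feeding, passed for Sirt2-/- against Control, with a log2 fold change of -2.99 (standard error 0.58, adjusted p = 0.0311 from edgeR). It is 1 of the 9 tested genes of the PPARG target list, which had a median of -0.28 there. Scd1 was the only 1 of these 9 with an unadjusted p under 0.05 (14.9% of all genes did). For CE against Control 0 of the 9 had such a p (10.7% of all genes did), with a median of 0.04. Scd1 is also 1 of the 11 genes raised by feeding. Of these, 7 had an unadjusted p under 0.05 for Sirt2-/- against Control, all lower, with a median of -1.12, against the same 14.9% of all genes. In Sirt2-/-/CE against Sirt2-/-, which shares the Sirt2-/- mice, 5 of the 11 had an unadjusted p under 0.05 (7.25% of all genes did). All 5 were higher, and the median of the list was 0.75. In the interaction 7 of 11 did (8.34% of all genes), all higher, with a median of 1.34. After adjustment 0 of the 11 passed in either. The log2 fold change of Scd1 was -2.84 with the clock score as a covariate and -2.58 without the 4 mice of lowest score, close to its value in all mice. Its adjusted p from edgeR was then 0.173 and 0.288, and the call was also lost with only the 2 groups compared (0.0628) and without Control replicate 1, 2 or 3 or Sirt2-/- replicate 12, 14 or 15 (0.0581 to 0.103).

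Cyp4a14, a fatty acid hydroxylase raised by fasting through PPARA, passed for Sirt2-/- against Control at 2.97 (standard error 0.51, adjusted p = 0.0199 from edgeR) and for genotype averaged over cold at 2.15 (standard error 0.35, adjusted p = 0.0102). For Sirt2-/- against Control its log2 fold change was 2.85 with the clock score as a covariate (adjusted p = 0.159 from edgeR) and 2.56 without the 4 mice (0.228), and the call was also lost without Control replicate 2 (0.062) or Sirt2-/- replicate 14 (0.0667). For genotype averaged over cold the value was 2.07 with the covariate (adjusted p = 0.0801 from edgeR) and 1.82 without the 4 mice (0.212). Of the 13 genes of the fasting list, 7 had an unadjusted p under 0.05 for Sirt2-/- against Control, 5 higher and 2 lower, with a median of 0.26, again against 14.9% of all genes. For Sirt2-/-/CE against Sirt2-/- 2 of 13 did (7.25% of all genes), both lower, with a median of -0.19. For Sirt2-/-/CE against CE 3 of 13 did (6.09% of all genes), all higher, with a median of 0.24. For genotype averaged over cold 5 of 13 did (13.8% of all genes), all higher, with a median of 0.21. The part of feeding and fasting genes in the values of Plin5 and Pparg was not tested. The clock genes and the markers of hepatocytes, adipocytes, muscle, pancreas, Kupffer cells, endothelium, stellate cells and cholangiocytes counted 0 called genes in the 7 comparisons. Among them the clock genes Arntl, Npas2 and Clock had a median log2 fold change of 3.25 for Sirt2-/- against Control. There 3 of 3 had an unadjusted p under 0.05 (14.9% of all genes did). For CE against Control their median was 3.06, where 2 of 3 did (10.7% of all genes). The part of these 3 genes in the values of Pparg and Plin5 was not tested.

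Genes whose pattern over the 20 mice was among the most like that of Pparg, among the 10582 genes whose mean reached 1 FPKM, were Pex19 (r = 0.89, rho = 0.91), Bbox1 (0.85 and 0.85), Hoga1 (0.85 and 0.85) and Klf1 (0.81 and 0.73). With the group means subtracted their r with Pparg lay between 0.74 and 0.87. For the mean of the 10 genes, each standardized over the mice, they were Hsd17b11 (r = 0.84, rho = 0.77), Acadm (0.83 and 0.82), Hadhb (0.79 and 0.69), Decr1 (0.79 and 0.71) and Ech1 (0.79 and 0.73). Hsd17b11 encodes a droplet protein, and the other 4 encode enzymes of fatty acid oxidation. These values are descriptions, since the highest of many genes were taken and all share the same libraries.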

How the data were processed

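Oligo(dT)-enriched liver RNA of 20 mice was sequenced (Illumina NovaSeq). The authors deposited read counts per gene, without normalization, and FPKM values beside them. The submitters' processing notes name the build mm10. The aligner, the counter and the handling of strand are not given in the sources used here. A further 9 lines that named no gene were removed, and 0 columns belonged to no sample.

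Counts were analysed with R 4.3.3 and edgeR 4.0.16 (TMM scaling, filterByExpr at count 10 and total 15, quasi-likelihood test, 1 fit with the group as the only term, 16 residual degrees of freedom). Genes that passed held 99.94% or more of a library's counts, and the common dispersion was 0.147. Log2 CPM used a prior count of 2. The scripts were checked on simulated data with known changes. For Sirt2-/- against Control the edgeR test recovered 49% of simulated log2 changes of 1 and 95% of those of 2. Nothing in the sources says whether mice of a group shared a litter or cage.

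All 10 genes were named. Values in every mouse are given for genes with an unadjusted p under 0.05 in at least 1 of the 7 comparisons, and for Pnpla2. Of other lists, genes with an adjusted p under 0.05 were named, and genes were named as most alike from the 5 of highest r, of which 1 is not reported here. The members and lists were chosen with earlier results of these data known. The alternatives were DESeq2 1.42.0, limma 3.58.1 voom with sample quality weights, other scalings and filters, the clock score as a covariate, a fit of only the groups compared and leaving out every mouse once. The removal of the 4 mice of lowest clock score was chosen after seeing the data. Positions and exon overlaps came from GENCODE vM21 on GRCm38, the same assembly as mm10, start regions from RefSeq on GRCm38.p6, and near-identical transcripts from BLAST 2.17.0 at 95% identity over 150 bases. Python 3.11.15 with matplotlib 3.10.9 drew the figures.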

Additional observations from a re-analysis of the deposited data

Results flagged for a closer look

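For 4 of the 10 genes, a single mouse lay far from the others of 1 group of 5 mice, with a gap to the nearest of more than 0.71 of the group's range (Dixon's critical value at 95%). The 10 genes in 4 groups make 40 groups examined, of which chance alone gives about 2, or 1 in 20. Pparg in Control and Plin5 in CE fell just short, each with a gap of 0.709, as did Pnpla2 in Sirt2-/-/CE (0.708). Plin2 had 344 CPM in CE replicate 9 (gap 0.721 of the range), 1 of the 4 mice of low clock score. Plin4 had 13.9 CPM in Sirt2-/- replicate 11 (gap 0.719). Pnpla2 had 136 CPM in Control replicate 3 (gap 0.813). G0s2 had 363 CPM in Sirt2-/-/CE replicate 16 (gap 0.815), and the difference of G0s2 between Sirt2-/-/CE and CE, 1.34 on the log2 scale, was 0.22 without that mouse.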

How the results depend on the processing

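Of the 10 genes, 0 were called in any comparison by the edgeR fit. For CE against Control, DESeq2 called 1 and limma voom 1 (Pparg both times, adjusted p = 0.00813 and 0.0117), and leaving out each mouse gave 0 to 1. For Sirt2-/- against Control, DESeq2 called 1 (Plin5, adjusted p = 0.0243), limma voom 2 (Plin5, adjusted p = 0.0339, and Pparg, adjusted p = 0.0345) and scaling by library size only 1 (Plin5, adjusted p = 0.0397), and leaving out each mouse gave 0 to 1. In the other 5 comparisons the count was 0 under all alternatives run. Of the differences given with an adjusted p, 3 near 0 changed sign. Pparg for Sirt2-/-/CE against Sirt2-/- (-0.15) was -0.31 to 0.07 as each mouse was left out, above 0 without Sirt2-/- replicate 13. Pnpla2 for Sirt2-/-/CE against Sirt2-/- (-0.06) was -0.24 to 0.03, at or above 0 without Sirt2-/- replicate 14 or Sirt2-/-/CE replicate 17 or 20. Pnpla2 for Sirt2-/-/CE against CE (-0.03) was -0.21 to 0.09, above 0 without CE replicate 8 or 10 or Sirt2-/-/CE replicate 17 or 20, and was 0.01 with upper-quartile scaling and 0.06 with library size only. G0s2 between Sirt2-/-/CE and CE moved from 1.34 to 0.09 with limma voom. Over all genes, the main counts of 1 (CE against Control), 139 (Sirt2-/- against Control), 0 (Sirt2-/-/CE against Sirt2-/-), 2 (Sirt2-/-/CE against CE), 0 (interaction), 29 (genotype averaged) and 0 (cold averaged) ran over 0 to 540, 0 to 906, 0 to 7, 0 to 31, 0 to 41, 1 to 317 and 0 to 76. With library size only, Sirt2-/- against Control had 330 genes higher and 89 lower, against 60 and 79, and the median of all genes was 0.16 (log2), so that Plin5, at 1.25, stood off it much as in the fit with TMM. No paired analysis was possible because no groups share a replicate number.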
